A study of Homo sapiens with 6 samples.

Results

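The genes of homologous recombination and of the Fanconi anaemia pathway were examined in IGROV-1, a line of human ovarian carcinoma cells. The 37 members were chosen by name, and every probe annotated with one of these symbols was taken. A probe was available for 33 of them, through 54 probes, among 18852 genes named on the array. BRCA2, RBBP8, FANCA and FANCD2 were not analysed here. One group of cells was cultured for 24 h in medium and ascites at equal volumes, the ascites taken from mice given CpG oligodeoxynucleotide ODN1826, and the other in the same mix with ascites of mice given saline. All mice carried IGROV-1 cells in the peritoneum, and the oligonucleotide was given into the peritoneum at 20 µg per mouse, once or on consecutive days. The schedule behind each sample, and any pooling of ascites, are not stated in the labels. ODN1826 is a synthetic phosphorothioate DNA that activates mouse Toll-like receptor 9, an innate immune sensor of bacterial DNA. Its sequence is shown because it defines the treatment, with both GACGTT motifs in capitals.
ODN1826: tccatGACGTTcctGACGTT

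Each group had 3 samples, each on a 1-colour Illumina bead array. Arrays had mean intensities of 587 to 788 and 13303 to 13835 probes above background, meaning a detection p-value under 0.01. Nothing in the labels says that samples within a group are separate mice or cultures, so a p-value here reflects how these samples varied, possibly only technically. The number of arrays limits the precision. CpG ascites replicate 1 lay apart, with Pearson correlations across probes of 0.948 to 0.958 to the other 5 arrays, which correlated with one another at 0.978 to 0.992. The change of each member was therefore also computed without it. Of the carcinoma markers PAX8, EPCAM, KRT7, KRT18, KRT19, MUC1, CDH1, CD24, KRT8 and CDH2, all but the last 2 were above background. Of 12 leukocyte markers only CD68 was above background, and of 9 fibroblast and endothelial markers only VWF.

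Homologous recombination repairs broken DNA by copying an intact sister chromatid. The ends are resected to single strands, BRCA1 and BRCA2 with their partners prepare them for strand exchange, and the joined molecules are then dissolved or cut apart. The Fanconi anaemia pathway deals with crosslinks between the strands: a core complex attaches ubiquitin to the pair FANCD2 and FANCI at a stalled fork, and recombination completes the repair. Ovarian carcinomas often lose one of these functions, and such tumours are sensitive to platinum drugs and PARP inhibitors. Many of these genes are transcribed mainly in S and G2 phase.

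Of the 33 genes with a probe, 28 had at least 1 probe above background on 3 or more of the 6 arrays and were tested. The values of these genes in CpG ascites were spread around those in saline ascites. RMI1, FANCI and BRCA1 were lower on all 3 CpG arrays than on any saline array, and EME1 was higher on all 3. With limma and Benjamini-Hochberg adjustment over the 13713 probes kept, 0 members passed at 0.05, as did 0 of all probes (0%), and the smallest adjusted p of a member was 0.193, for RMI1. These 4 genes also were the members with an unadjusted p under 0.05 on their most intense probe. They made up 14.3% of the 28 genes, against a background of 11.6% of the 9211 named genes tested. In the higher direction this was 1 member, or 3.57%, against 6.66% of all named genes, and in the lower direction 3 members, or 10.7%, against 4.92%. The higher member, EME1, was carried past the background filter by its CpG arrays, so counts that include it rest in part on the filter. The groups did not overlap for 5 members, or 17.9%, the fifth being DMC1, named after its values were seen. Over all named genes the groups did not overlap for 20.4%, with CpG ascites above for 11.1% and below for 9.3%. Among the members CpG ascites lay above for 2, or 7.14%, and below for 3, or 10.7%.

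In all, 13 members had higher values and 15 lower values in CpG ascites, and 48.4% of all named genes had lower values. The median log2 change was -0.023 over the members and 0.010 over all named genes. For 21 of the 28 members the change was smaller than 0.3 on the log2 scale. The 95% interval of the change had a median half-width of 0.41, and for 25 members it lay wholly between -1 and 1. On the most intense probe, a 2-fold difference in group means was thus outside the interval for these 25. It was inside the interval, in at least one direction, for TOP3A, EME1 and FANCG. The limit applies to these probes and not to the genes as a whole. On dimmer tested probes the interval of EXO1 (ILMN_2351916) reached 1.14 and that of RAD51D (ILMN_2370910) reached 1.22.

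**Figure D1:**
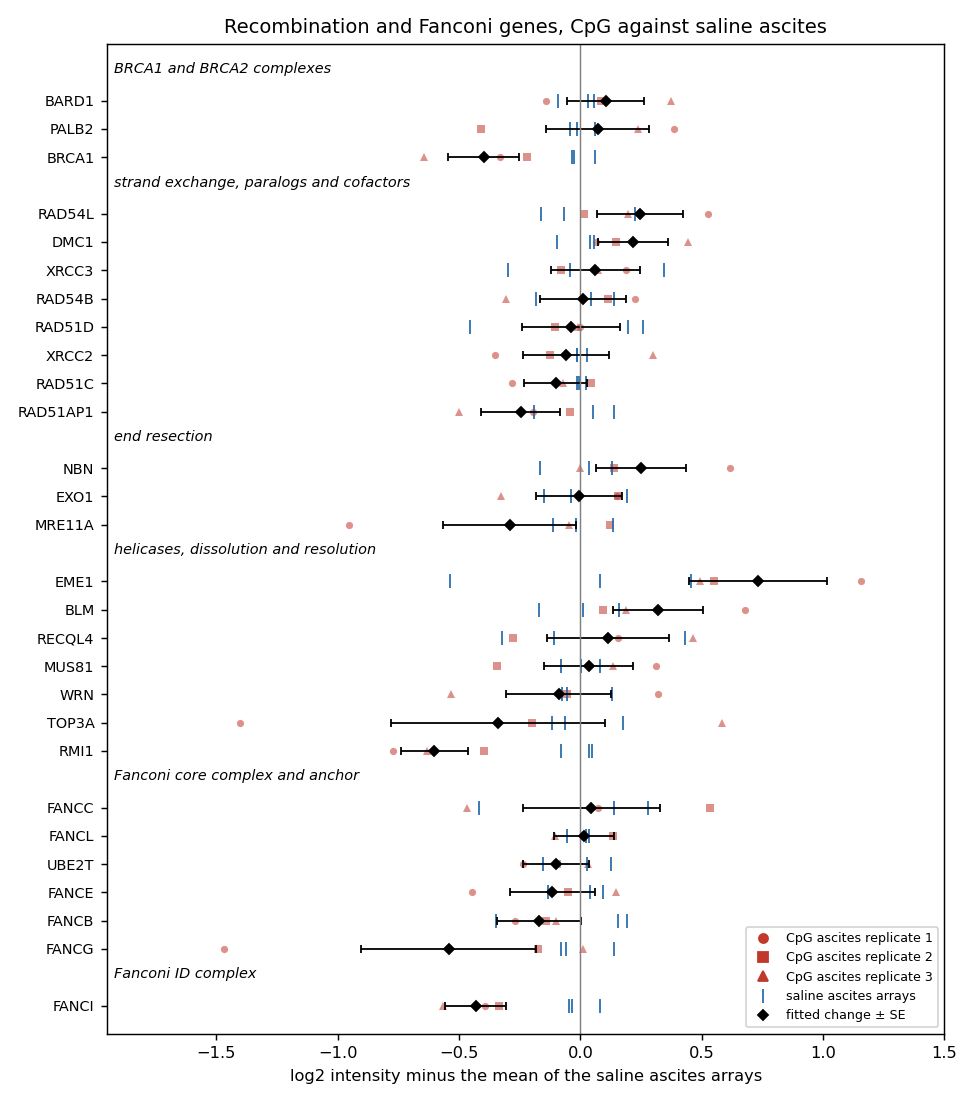
Each row is 1 member gene on its most intense probe, and the x axis is log2 intensity minus the mean of the 3 saline ascites arrays. Red symbols are the 3 CpG ascites arrays, blue ticks the 3 saline ascites arrays and black diamonds the fitted change with its SE. Most diamonds lie near 0, RMI1 (-0.60), FANCI (-0.43) and BRCA1 (-0.40) have all red symbols left of the blue ticks, and EME1 (0.73) has them to the right.

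As many genes of recombination are known targets of E2F transcription factors, the letters TTTCCCGC, TTTCGCGC, TTTGCCGC and TTTGGCGC were sought on both strands of RefSeq promoters (GRCh38.p14, 250 bases before to 50 after the start). At least 1 match was found in 7 of 41 promoters of 32 members, or 17.1%, against 3.31% of all 35116 promoters. TTTGAA and CCAAT were sought in the same way. TTTGAA was found in 7.32% of the member promoters against 15.2% of all, and CCAAT in 36.6% against 34.6%. Of the 23 tested genes with a promoter to search, DMC1, EXO1, FANCC, RMI1 and XRCC2 had an E2F match. The other tested genes, FANCI among them, were not searched. The stretches around the matches are shown for RMI1, which had the lowest change of all members, and for 3 of the others, whose changes were close to 0 or positive, with the matched letters in capitals, in the direction of the gene.
RMI1, chr9:83980733-83980820, + strand: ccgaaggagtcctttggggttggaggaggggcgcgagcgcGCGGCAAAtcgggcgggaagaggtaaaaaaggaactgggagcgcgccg
EXO1, chr1:241848168-241848253, + strand: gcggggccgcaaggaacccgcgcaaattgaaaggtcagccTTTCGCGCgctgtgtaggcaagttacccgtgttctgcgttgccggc
XRCC2, chr7:152676092-152676160, - strand: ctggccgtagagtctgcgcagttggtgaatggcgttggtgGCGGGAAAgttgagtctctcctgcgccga
DMC1, chr22:38570138-38570229, - strand: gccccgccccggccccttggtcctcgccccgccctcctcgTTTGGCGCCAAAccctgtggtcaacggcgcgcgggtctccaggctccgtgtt
The match in DMC1 is a pair of overlapping ones on opposite strands. The 5 matching genes had log2 changes of -0.60 (RMI1), -0.06 (XRCC2), -0.01 (EXO1), 0.05 (FANCC) and 0.22 (DMC1). The interval of the change lay wholly below 0 for RMI1 and included 0 for XRCC2, EXO1, FANCC and DMC1. Whether the E2F letters go with a change in either direction was not tested. RMI1, EXO1 and FANCC each have another annotated start whose promoter held no E2F match.

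Among the BRCA1 and BRCA2 complexes, BRCA1 was the gene with lower values. BRCA1 is a ubiquitin ligase subunit that promotes resection and recruits PALB2. On its most intense probe, ILMN_1738027, log2 intensity was 8.49, 8.60 and 8.18 on CpG ascites replicates 1, 2 and 3, and 8.79, 8.89 and 8.80 on saline ascites replicates 1, 2 and 3. The CpG arrays lay below the saline arrays without overlap. The log2 change was -0.40 ± 0.15 (SE), with an adjusted p of 0.342 in limma. The other probe, ILMN_2311089, had 7.78, 8.03 and 7.46 in CpG ascites and 7.84, 8.23 and 8.24 in saline ascites. There the groups overlapped, because saline ascites replicate 1 was lower than the other saline arrays, and the change was -0.34 ± 0.19.

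BARD1, the partner that BRCA1 needs for its ligase activity, had a log2 change of 0.11 ± 0.16 (SE), or 0.23 ± 0.14 without CpG ascites replicate 1, so its values did not follow those of BRCA1. PALB2, which bridges BRCA1 and BRCA2, had log2 intensities of 8.40, 7.61 and 8.25 in CpG ascites and 8.07, 7.97 and 7.999 in saline ascites. Its CpG arrays lay on both sides of the saline arrays, and the change was 0.07 ± 0.21. BRIP1, the helicase that binds BRCA1, was not well above background on any array at either of its probes.

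RAD51C, RAD51D, XRCC2 and XRCC3 encode related proteins that act in strand exchange. On the most intense RAD51C probe, ILMN_1695386, log2 intensity was 11.23, 11.56 and 11.44 in CpG ascites and 11.50, 11.53 and 11.49 in saline ascites. These values overlapped, with a change of -0.10 ± 0.13 (SE). Another RAD51C probe, ILMN_1760635, had 10.16, 10.24 and 10.35 in CpG ascites and 10.69, 10.68 and 10.50 in saline ascites. Here all CpG arrays lay below all saline arrays, the change was -0.38 ± 0.13 and the adjusted p 0.302. This probe is annotated to another RefSeq transcript of the gene than the most intense one. The remaining tested probe had -0.12 ± 0.14.

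RAD51D gave a different value on each of its tested probes. The most intense, ILMN_2370907, had 7.58, 7.48 and 7.57 in CpG ascites and 7.84, 7.13 and 7.78 in saline ascites, a change of -0.04 ± 0.20 (SE). The dimmer one, ILMN_2370910, had 6.83, 6.86 and 6.76 in CpG ascites and 5.63, 6.19 and 6.52 in saline ascites. It was above background on all CpG arrays and on no saline array, so only a bound can be given: the CpG level was at least 1.14-fold higher, with an adjusted p of 0.287 for the fitted change. The probe passed the filter only through the CpG arrays, so its p is no independent sign of a difference. XRCC2 and XRCC3 had log2 changes of -0.06 ± 0.18 and 0.06 ± 0.18.

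RAD51AP1, which stimulates strand pairing, had a change of -0.25 ± 0.16 (SE), with overlapping groups. RAD54L and RAD54B encode DNA translocases of strand exchange. RAD54L had log2 intensities of 8.27, 7.76 and 7.94 in CpG ascites and 7.58, 7.68 and 7.97 in saline ascites, a change of 0.25 ± 0.18. The groups overlapped, the highest value was that of CpG ascites replicate 1, and without that array the change was 0.11 ± 0.16. RAD54B had 0.01 ± 0.18. DMC1, known for its part in meiosis, gave signal on 1 of its 2 probes, with 11.54, 11.62 and 11.92 in CpG ascites and 11.53, 11.38 and 11.52 in saline ascites. The groups were separated by a margin much smaller than the spread within them, the change was 0.22 ± 0.14, and the second probe was not well above background on any array. RAD52, an annealing protein, was likewise not well above background.

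In end resection, NBN and MRE11A encode parts of the complex that senses and trims broken ends, and EXO1 encodes an exonuclease. On the most intense NBN probe, ILMN_1734833, log2 intensity was 11.41, 10.93 and 10.79 in CpG ascites and 10.63, 10.83 and 10.92 in saline ascites. CpG ascites replicate 1 was the highest, the others lay within or near the saline values, and the change was 0.25 ± 0.19 (SE), or 0.07 ± 0.14 without that array. The second NBN probe, ILMN_2358041, had -0.26 ± 0.21, so the gene has no settled direction. EXO1 had -0.01 ± 0.18 on its most intense probe and 0.54 ± 0.26 on a dimmer one, which missed the background threshold on 1 saline array and had 0.36 ± 0.24 without CpG ascites replicate 1. MRE11A had -0.29 ± 0.27 and -0.01 ± 0.19. RAD50, the third part of the complex, was measured by 1 probe that was not well above background, which says nothing about its transcript elsewhere.

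Among the genes that take joined molecules apart, RMI1 had the lowest and EME1 the highest change of all members. RMI1 is a scaffold of the complex in which the BLM helicase and the topoisomerase TOP3A dissolve crossed-over molecules. On the RMI1 probe ILMN_2151488, log2 intensity was 10.20, 10.58 and 10.34 on CpG ascites replicates 1, 2 and 3, and 11.01, 10.90 and 11.02 on saline ascites replicates 1, 2 and 3. Every CpG array lay below every saline array, by more than the range of the saline arrays. The change was -0.60 ± 0.14 (SE), with a 95% interval of -0.93 to -0.28 and an adjusted p of 0.193. The other tested RMI1 probe, ILMN_1754051, had 9.74, 9.78 and 9.44 in CpG ascites and 9.92, 9.78 and 9.84 in saline ascites. Its mean was lower in CpG ascites too but by less, at -0.19 ± 0.14 with overlapping groups, with CpG ascites replicate 3 lowest.

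EME1 is the partner of the nuclease MUS81, which cuts joined molecules and stalled forks. Its log2 intensity was 7.52, 6.91 and 6.86 in CpG ascites and 5.82, 6.44 and 6.82 in saline ascites. The lowest CpG array was barely above the highest saline array. The change was 0.73 ± 0.28 (SE), with a 95% interval of 0.07 to 1.40 and an adjusted p of 0.358. EME1 was above background on 3 CpG arrays and on 1 saline array, so the size of the change is less certain. The CpG arrays carried the probe past the filter, so its p is no independent sign of a difference. MUS81 itself had 0.03 ± 0.18.

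BLM had log2 intensities of 9.23, 8.65 and 8.74 in CpG ascites and 8.38, 8.71 and 8.56 in saline ascites. The groups overlapped, with CpG ascites replicate 1 again the highest, and the change was 0.32 ± 0.19 (SE), or 0.14 ± 0.14 without that array. TOP3A had -0.34 ± 0.44 on its most intense probe and 0.47 ± 0.25 on the other. The helicase genes WRN and RECQL4 had -0.09 ± 0.22 and 0.11 ± 0.25. Without CpG ascites replicate 1 the change of WRN was -0.29 ± 0.17. The 3 partners of the dissolution complex therefore did not share a direction: RMI1 had lower values, BLM higher values within the spread, and TOP3A had no settled sign.

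**Figure D2:**
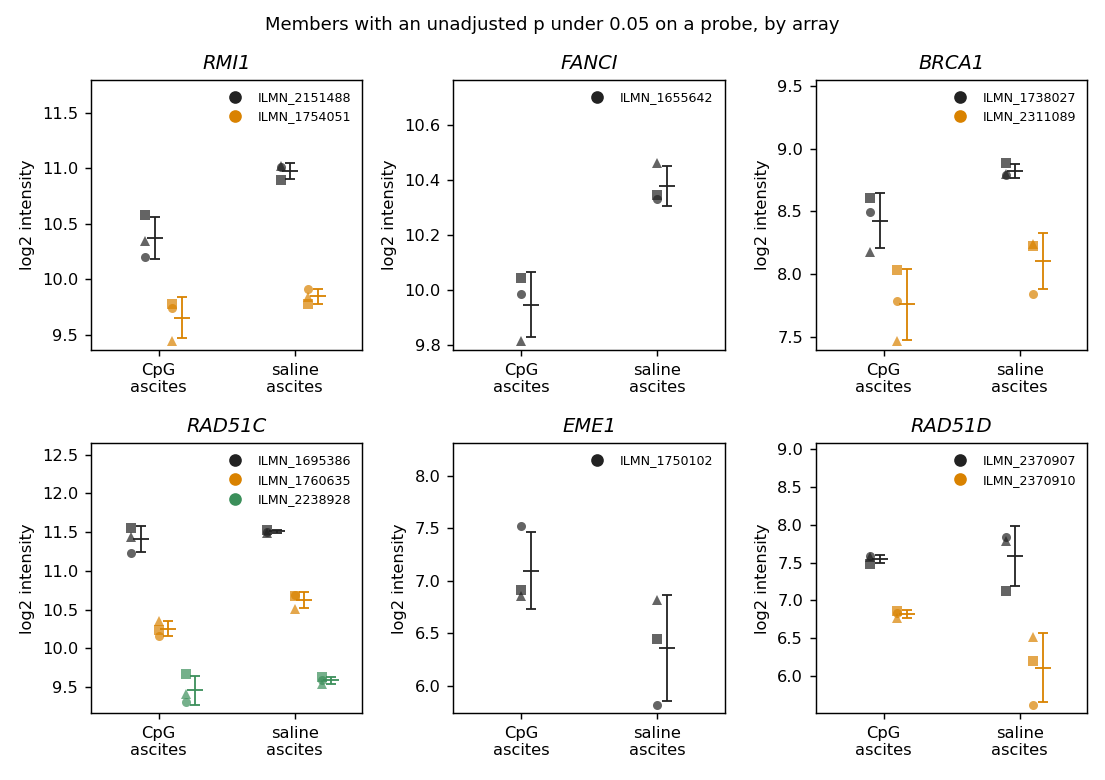
Each panel is a gene with an unadjusted p under 0.05 on at least 1 probe, with log2 intensity on the y axis, CpG ascites on the left and saline ascites on the right. Circles, squares and triangles are replicates 1, 2 and 3, colours are probes, and bars are the mean and SD over 3 arrays. The RMI1 probes differ in the size of the gap, and the RAD51C and RAD51D probes differ in whether there is one. The lower RAD51D probe was above background on no saline array and passed the filter only through the CpG arrays.

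In the Fanconi pathway, FANCI was the gene with a gap between the groups. FANCI pairs with FANCD2 and is clamped on DNA after ubiquitin is attached. Its log2 intensity was 9.98, 10.04 and 9.81 in CpG ascites and 10.33, 10.34 and 10.46 in saline ascites. All CpG arrays lay below all saline arrays, the change was -0.43 ± 0.12 (SE) with a 95% interval of -0.72 to -0.14, and the adjusted p was 0.271.

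The core complex genes showed no such gap. FANCL, the ubiquitin ligase of the core complex, had a log2 change of 0.01 ± 0.12 (SE), the smallest error of all members. Its 95% interval ran from -0.27 to 0.30. UBE2T, the ubiquitin-conjugating enzyme that works with FANCL, had -0.10 ± 0.14. FANCE, which contacts FANCD2, had -0.12 ± 0.18, FANCB -0.17 ± 0.17 and FANCC 0.05 ± 0.28. FANCC was above background on 2 arrays of each group. FANCF, an adaptor of the core, and FANCM, the translocase that anchors it on DNA, were not well above background on any array.

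FANCG, another core subunit, had a log2 intensity of 8.99 on CpG ascites replicate 1, and 10.28 and 10.47 on replicates 2 and 3, while the saline arrays had 10.40, 10.38 and 10.59. The fitted change of -0.54 ± 0.36 (SE) rests on that single array: without it the change was -0.08 ± 0.14. TOP3A behaved alike on its most intense probe, with 8.69 on CpG ascites replicate 1, 9.89 and 10.67 on the other CpG arrays and 10.26, 9.97 and 10.02 in saline ascites. Its change was 0.19 ± 0.23 without that array. MRE11A, singled out after its values were seen, had 6.75 against 7.82 and 7.65 on the other CpG arrays and 7.68, 7.58 and 7.83 in saline ascites, and its change was 0.04 ± 0.14 without that array.

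Leaving out CpG ascites replicate 1 turned the sign of 8 of the 28 members, namely PALB2, XRCC2, XRCC3, RAD54B, MRE11A, TOP3A, MUS81 and FANCE. The 3 lower genes held nearly the same values: RMI1 had a log2 change of -0.51 ± 0.13 (SE), FANCI -0.45 ± 0.13 and BRCA1 -0.43 ± 0.15, with limma adjusted p of 0.150, 0.188 and 0.258. Their sign could not turn, because they had been singled out for having all CpG arrays below all saline arrays. EME1 had 0.52 ± 0.26 and no longer had an unadjusted p under 0.05. That left 3 members, or 10.7%, where the background over all named genes was 13%. In the same fit 21 of all probes, or 0.153%, passed the adjusted threshold, and 0 of them belonged to a member. On CpG ascites replicate 1, 3 members (TOP3A, EME1 and FANCG) lay more than 1 log2 unit from the saline mean, which is 10.7% against 4.77% of all named genes. On the other CpG arrays it was 0 members, against 0.337% and 0.923% of all named genes.

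**Figure D3:**
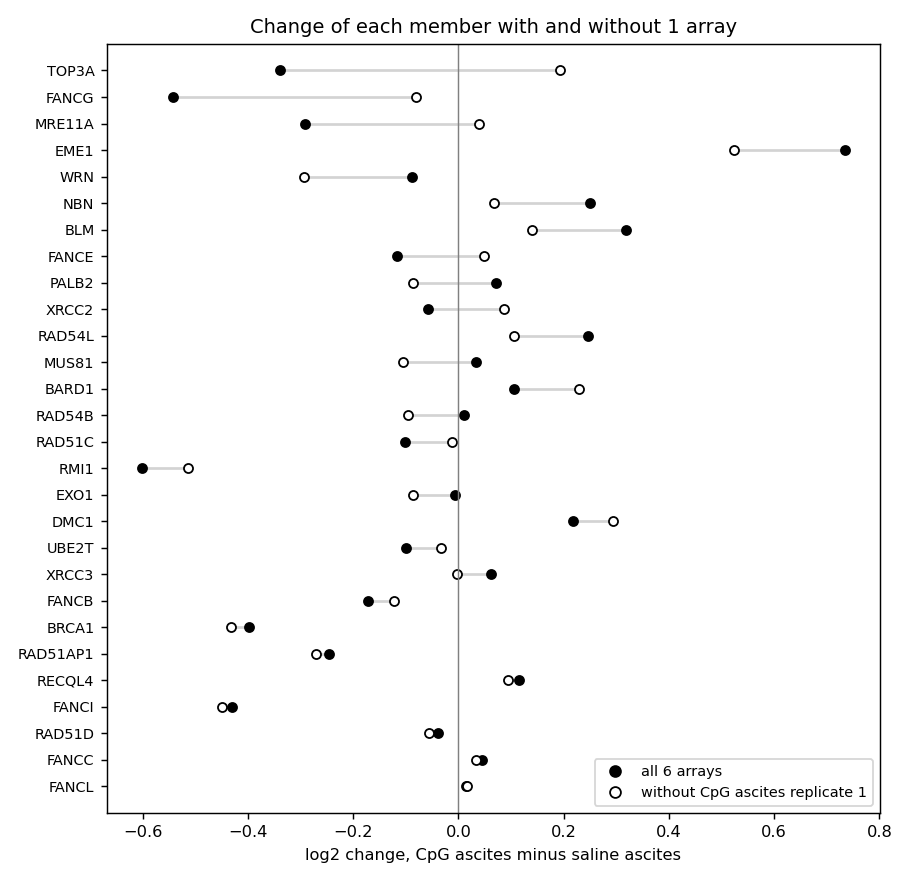
Each row is 1 member gene, with the log2 change of CpG ascites minus saline ascites on the x axis, over all 6 arrays (filled) and without CpG ascites replicate 1 (open). Rows are ordered by how far the change moved. TOP3A, FANCG and MRE11A moved by more than 0.3, while RMI1, BRCA1 and FANCI stayed near their first values. The sign of RMI1, BRCA1 and FANCI could not turn, as all their CpG arrays lay below all saline arrays.

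Several tested probes were available for 8 members. The probes had opposite signs for EXO1, NBN and TOP3A, and the gap between the lowest and highest log2 change of a gene was 0.55, 0.51 and 0.81. Without CpG ascites replicate 1 the signs stayed opposite for EXO1 and NBN, while the TOP3A probes shared a sign with a gap of 0.19 and the MRE11A probes took opposite signs with a gap of 0.23. No gap is given for RAD51D, where 1 of the probes has only a bound. For RMI1 the sign was shared but the gap was 0.41. In RAD51C and MRE11A the gaps were 0.27 and 0.28, and in BRCA1 it was 0.06, so BRCA1 had the closest agreement between probes. For these genes a value applies to the probe rather than to the gene as a whole. Whether the probes measure different transcripts was not tested.

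**Figure D4:**
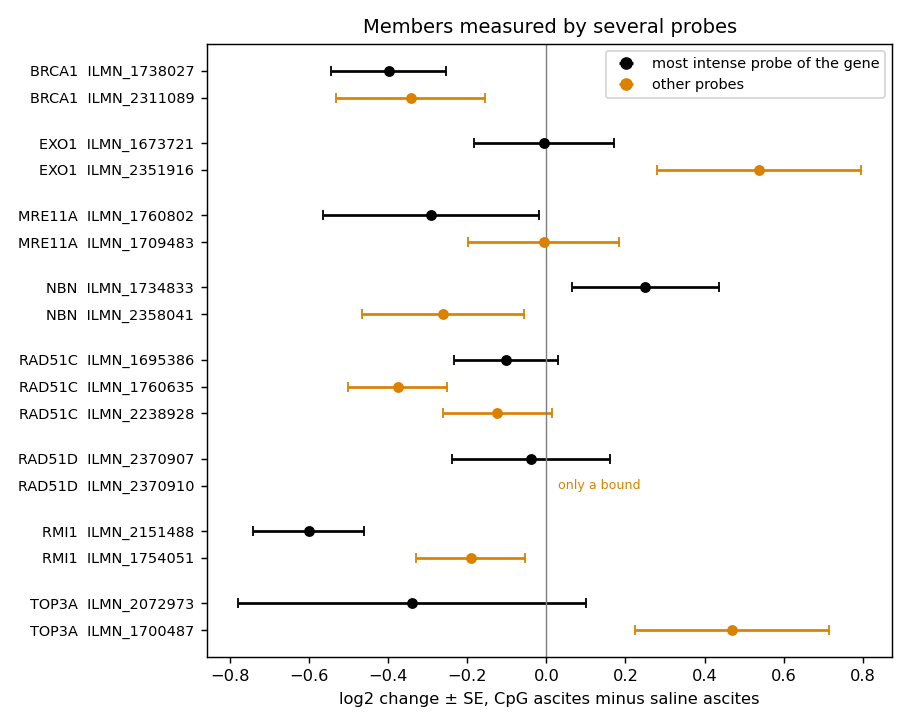
Each row is 1 tested probe of a gene that has several, with the log2 change of CpG ascites minus saline ascites and its SE on the x axis. Black marks the most intense probe of a gene and orange the others. The BRCA1 probes nearly coincide at -0.40 and -0.34, and the EXO1 probes lie at -0.01 and 0.54. The dimmer RAD51D probe has no symbol, since its difference is only a bound.

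Other genes of recombination and crosslink repair were examined as a list of 53, of which 42 were tested. None passed the adjusted threshold. With an unadjusted p under 0.05, 3 of the 42 had higher and 2 lower values, where the shares over all named genes were 6.66% and 4.92%. The list median was -0.05. Without CpG ascites replicate 1, 1 had higher and 3 lower values at that p, beside 576 and 621 of the 9211 named genes. The list median was then 0.03, so the list has no settled direction. USP1, the protease that removes ubiquitin from FANCD2 and FANCI, had a log2 change of -0.37 ± 0.14 (SE) on its most intense probe, with all CpG arrays below all saline arrays. Its other tested probe, ILMN_1737254, had 0.12 ± 0.21 with overlapping groups, and 0.30 ± 0.18 without CpG ascites replicate 1, so USP1 has no settled direction. WDR48, the cofactor that activates USP1, had 0.53 ± 0.19, or 0.35 ± 0.16 without that array. TP53BP1, which opposes the resection that BRCA1 promotes, had log2 intensities of 10.75, 9.92 and 10.41 in CpG ascites and 9.29, 9.64 and 9.76 in saline ascites. Its change was 0.80 ± 0.23, opposite in sign to that of BRCA1, with an adjusted p of 0.271. The helicase gene RECQL5 had 0.37 ± 0.14. The second lower gene, ERCC4, had -0.73 ± 0.31 on its most intense probe, with all CpG arrays below all saline arrays. Its change was -0.35 without CpG ascites replicate 1. Of the genes named here, TP53BP1 and ERCC4 kept an unadjusted p under 0.05 in limma without that array.

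Genes of the cell cycle phases in which recombination is active were set beside the members. Of 22 S phase and E2F genes tested, 13 had higher values in CpG ascites and the median log2 change was 0.08. Of the 22, 2 higher and 1 lower had an unadjusted p under 0.05, where the shares over all named genes were 6.66% and 4.92%. Of all named genes 48.4% had lower values in CpG ascites. The replicative helicase gene MCM2 had 0.45 ± 0.13 (SE), the origin gene ORC1 0.57 ± 0.21 and MCM5 0.24 ± 0.12, while the checkpoint gene CLSPN had lower values. CLSPN was the 1 lower gene with such a p, and it was above background on no CpG array and passed the filter only through the saline arrays, so that count rests on the filter. ORC1, 1 of the 2 higher genes, was above background on 3 CpG and 2 saline arrays. It would not have passed the filter on its saline arrays alone. Of 21 genes of G2 and mitosis, 9 had higher values and the median was -0.01. Of the 21, 0 higher and 1 lower had such a p, or 0 and 3 without CpG ascites replicate 1. Without that array 576 of the 9211 named genes were higher and 621 lower at such a p. The mitotic cyclin gene CCNB1 had -0.29 ± 0.12, CENPF -0.30 ± 0.14, TPX2 0.44 ± 0.19 and FOXM1 0.65 ± 0.29. Without CpG ascites replicate 1 the change of FOXM1 was 0.33 ± 0.18. Neither list had a gene past the adjusted threshold.

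The summed normalized intensity of the 10 carcinoma markers was 25986 to 28128 on the CpG arrays and 22462 to 23318 on the saline arrays, without overlap, and KRT19 and CD24 made up 34.9% and 35.7% of the difference between the mean sums. Of the 8 tested, 7 had higher values, or 6 without CpG ascites replicate 1, and 0 passed the adjusted threshold. With an unadjusted p under 0.05 there were 3 of the 8, namely MUC1, CD24 and CDH1, where the share over all named genes was 11.6%. Of all named genes 48.4% had lower values. CDH1 was above background on no saline array and passed the filter only through the CpG arrays, so its part in these counts rests on the filter. KRT18 had the other sign, at -1.07 ± 0.64 (SE), or -0.23 ± 0.19 without CpG ascites replicate 1. For the leukocyte markers the sums overlapped, at 3176 to 3755 in CpG ascites and 3276 to 3609 in saline ascites. For the fibroblast and endothelial markers they were 688 to 840 in CpG ascites and 991 to 1175 in saline ascites, with VWF the only gene above background. The part of these shifts in the values of RMI1, FANCI, BRCA1 and EME1 was not tested. In bulk RNA a change in the share of cells of one kind and a change in RNA per cell cannot be told apart.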

How the data were processed

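Samples were grouped by the treatment in their titles. BeadStudio summarised the arrays, per the submitters' processing notes, which give no version. The deposited table holds a non-normalized intensity and a detection p-value per probe and array, per the file headers. A second deposited table holds the authors' processed intensity, with medians of about 121 on every array on a linear scale; its normalization is not stated, and it served as an alternative.

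Intensities were corrected and quantile normalized with neqc of limma 3.58.1 in R 4.3.3 (offset 16, log2). Of 48801 probes, 13713 were kept, those above background (detection p-value under 0.01) on 3 or more of the 6 arrays. The platform annotation gave gene names, updated by gene number: 28097 probes had 1 symbol, 13 several and 20691 none. A gene was read from its kept probe of highest mean. Groups were compared with lmFit and eBayes without covariates, two-sided, as CpG ascites minus saline ascites, with Benjamini-Hochberg adjustment over all probes kept. The fit was tested on simulated data.

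A bound was the mean of the brighter group against the mean, per array, of the higher of the lowest signal above background and the probe's own. The members and lists were chosen with earlier results of these data known. Per-array values are given for members with an unadjusted p under 0.05 on any probe, the 4 highest and 4 lowest changes, and PALB2, BLM, BRCA1, FANCI and RAD51C. Members whose probes disagree are named, and up to 4 genes of each other list with the smallest p. ERCC4 was added after its values were seen. Same-numbered arrays of the groups had correlations of their deviations from the group means of -0.10, 0.01 and -0.02, so replicate numbers were not taken to pair arrays. No chip position is given in the column names.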

Additional observations from a re-analysis of the deposited data

How the results depend on the processing

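Over the alternatives run, 250 of 258 values of the probes described by array kept their direction, and 0 passed the adjusted threshold. The mean-variance trend, the replicate block and the other filters on dim probes leave the log2 change itself unchanged. The direction of those values was therefore fixed in advance. Many of the probes had also been picked for a small p or an extreme change in these data. The other direction was found for PALB2 with array weights (-0.093) and for RAD51D with median scaling (0.031). With each gene averaged over its probes, RAD51D, with 1 probe that has only a bound, had 0.33 and NBN -0.0056. With 1 array left out, PALB2 ran from -0.086 to 0.31 and RAD51D (ILMN_2370907) from -0.27 to 0.089. RMI1 (ILMN_2151488) ran from -0.70 to -0.51 over all settings, FANCI from -0.48 to -0.34, BRCA1 (ILMN_1738027) from -0.49 to -0.28 and EME1 from 0.39 to 0.96, and their lowest adjusted p were 0.150, 0.188, 0.220 and 0.2995. The median change of the members was 0.062 with median scaling, which moved the median of all probes to 0.080, and 0.012 with genes averaged over their probes. It ran from -0.067 to -0.0073 with 1 array left out. The number of members with higher values at an unadjusted p under 0.05 was 0 with array weights, with the replicate block and over probes above background on all 6 arrays, and 0 to 1 with 1 array left out. The number with lower values was 1 with median scaling and 2 to 3 with 1 array left out. Unlike these member counts, which are per gene and by direction, the share with such a p over all probes tested is given for either direction. This share was 12.8% in the main fit, 9.03% with median scaling and 12.5% with array weights. It was 10.7% with the replicate block, 13.5% over probes above background on all 6 arrays, and 7.02% to 16.9% with 1 array left out. The cause of these shifts was not tested. Over all probes, 14 lower probes passed with a mean-variance trend, 1 with no background correction and 1 with the authors' values. The last pair of settings gave nearly the same changes, such as -0.321 for BRCA1 (ILMN_1738027) in each, so they are not separate checks. With 1 array left out, 0 to 3 higher and 0 to 18 lower probes passed, the most without CpG ascites replicate 1. With the replicate block 0 probes passed and 3 members had lower values at that p. The chip as a block was not run, since no position is given. The background correction sets the size of the changes of dim probes such as that of EME1.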
